A study of Homo sapiens with 3 samples.

Results

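The mitochondrial ribosomal protein genes encode the proteins of the mitochondrial ribosome. They were taken from the array's gene annotation as the symbols that start with MRPL or MRPS followed by a number. Of 78 genes with such names, 3 pseudogenes and 2 antisense transcripts were left out, which gave 73 genes of 14884 named genes: 48 of the large subunit (MRPL) and 25 of the small subunit (MRPS). Gene expression had been measured in BE(2)-C, a MYCN-amplified human neuroblastoma line (a clonal subline) grown in medium with fetal calf serum, on Affymetrix HuGene-2_0-st arrays. The cells had received WDR5 siRNA-1, WDR5 siRNA-2 or a control siRNA for 40 hours, and no other treatment is named. WDR5 helps histone methyltransferases of the MLL family to mark histone H3, and the series asks what it does for transcription in these cells. Each of the 3 groups was 1 array, so the values below have no replicate error and no p-value, and a ratio describes the arrays it was taken from. In bulk RNA, fewer cells of a type and less RNA per cell cannot be told apart.

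The mitochondrial ribosome sits in the mitochondrial matrix and makes the few proteins encoded in mitochondrial DNA, all of them subunits of the respiratory chain and the ATP synthase. Its rRNAs come from mitochondrial DNA, whereas its proteins are encoded in the nucleus, made in the cytosol and imported. Some of them have a counterpart in the bacterial ribosome and others are found only in mitochondria. The small subunit reads the mRNA, and the large subunit joins amino acids and passes the new chain out through an exit tunnel that faces the inner membrane. MYC proteins are known to drive genes of cell growth and of mitochondrial biogenesis.

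WDR5 was at a log2 level of 7.90 on the siRNA-1 array and 7.90 on the siRNA-2 array, against 9.46 on the control array, so its probe set was 2.95-fold lower on both. The siRNA arrays held exactly the same value, so this is a single number, and it lies below the highest background row of the arrays (9.26). The 3 arrays had medians of 5.79 to 5.81 over all 53617 rows. A gene was kept when its mean level was at or above the median of all genes, 6.78. Of the 73 mitochondrial ribosomal protein genes, 71 were kept, and MRPL23 and MRPL54 (means of 6.35 and 6.72) were not. Of 10 neuroblastoma markers listed, 8 were measured and all 8 were kept, with control levels from 7.29 (TH, equal on all arrays) to 11.6 (HAND2). They did not move together: DBH, which encodes the enzyme that makes noradrenaline, was at 9.58 with siRNA-1 and 10.9 with siRNA-2, against 10.4 with control. LUM, the 1 stromal marker measured, was at 10.4 with siRNA-1 and 9.86 with siRNA-2, against 8.88 with control. All 3 endothelial markers measured (PECAM1, VWF and KDR) were below the filter level, and PECAM1 had ratios of 0.59 and 0.83 to control there. Of the epithelial markers, EPCAM and KRT19 were below it and KRT18 was kept, at 7.82 with siRNA-1 and 8.04 with siRNA-2, against 8.04 with control. Of the leukocyte markers, CD14 was below it and CD68 was kept, at 8.14 with siRNA-1 and 7.83 with siRNA-2, against 7.75 with control. The Schwann cell markers S100B (6.83) and SOX10 (6.96) were equal on all arrays. The part of these marker differences in the results below was not tested.

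Signal strength varied widely between members. The median of their mean levels was 9.55 over the 71 kept members, against 8.54 over all 7442 kept genes. Each probe set has its own response, so this describes brightness and does not rank the amounts of RNA. The 23 rows of the array that measure background held values from 1.75 to 9.26, and the median of their mean levels was 4.61. Of the members, 37 had a mean above the highest of these values. For the other members, the part of background in the ratio was not tested.

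At the deposited scaling, the medians showed no change shared by both WDR5 siRNAs, and most members were highest on the siRNA-1 array. Their median log2 ratio was 0.09 with siRNA-1 over control, 0.00 with siRNA-2 over control and 0.09 with siRNA-1 over siRNA-2, while the median of all kept genes was 0.00 in each case. Scaling the arrays on their hybridization controls takes the same amount off every gene of an array, and it moved the members' values of 0.09 to -0.05 and -0.03 and those of all kept genes to -0.15 and -0.12. On the siRNA-1 array alone, 45 of 71 members had their highest value, where 28.7% of all kept genes did (63.4% of members). On the siRNA-2 array alone, 27 members had their lowest value, where 28.7% of all kept genes did. The ratios to control share the control array, so a value that is off on that array shifts both.

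**Figure D1:**
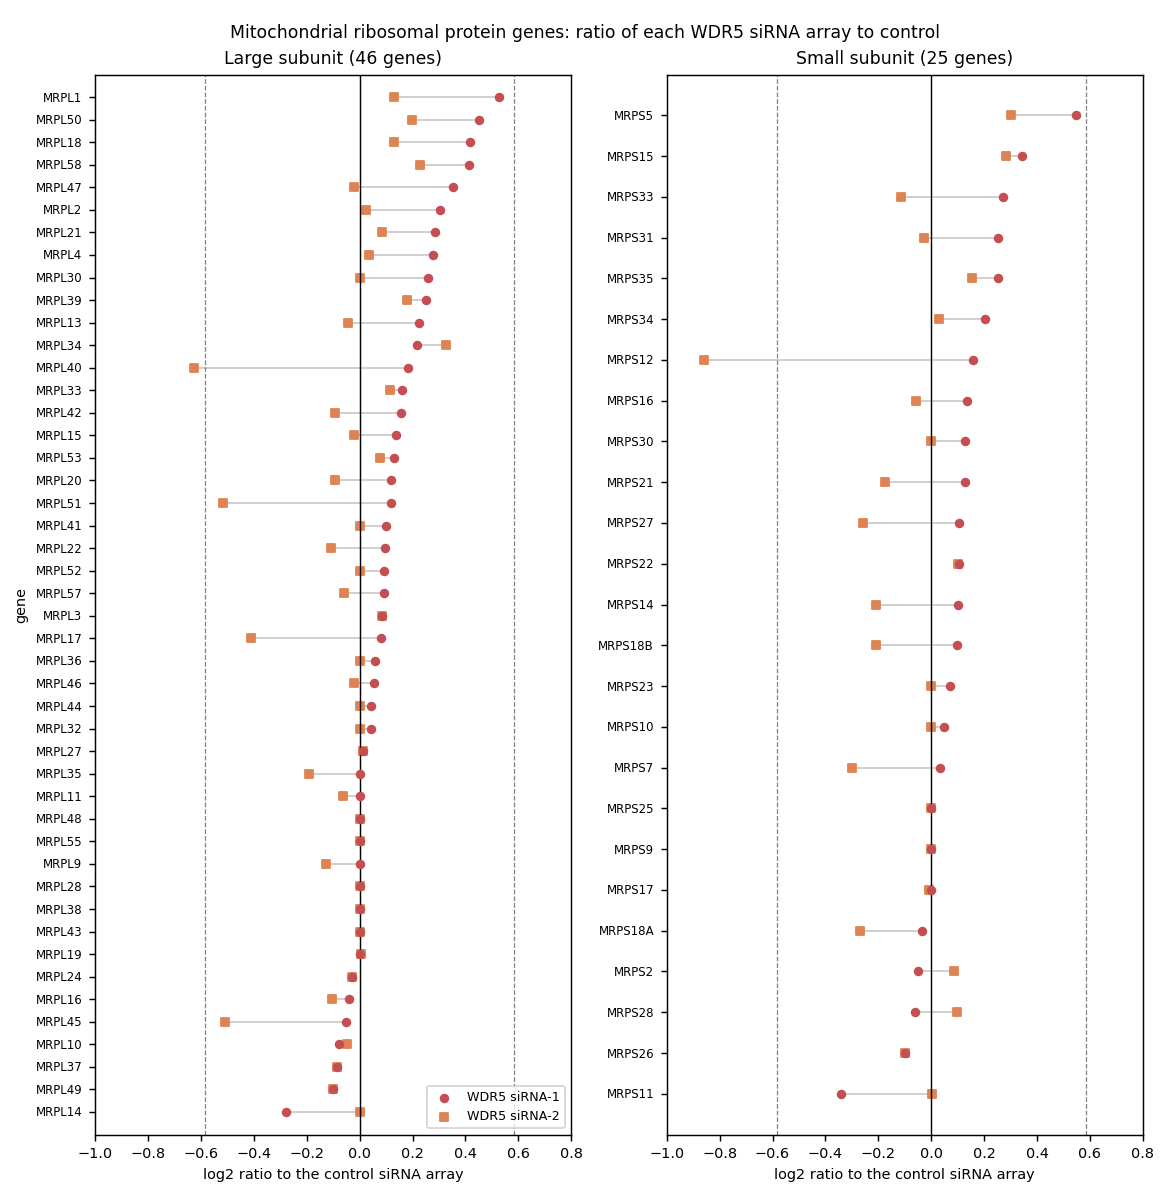
Log2 ratio of each WDR5 siRNA array to the control siRNA array for the 46 large and 25 small subunit genes kept, ordered by the siRNA-1 ratio, with dashed lines at 1.5-fold. At the deposited scaling most circles (siRNA-1) lie right of 0 (the scaling on hybridization controls moves their median to -0.05), while the squares (siRNA-2) lie on both sides, and only the squares of MRPS12 and MRPL40 pass a dashed line.

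At the deposited scaling, 48 members were higher with siRNA-1 than with control by any amount, 12 were lower and 11 were exactly equal. Among all kept genes 38.1% were higher and 38.2% lower. By 1.2-fold, 11 members were higher (11% of all kept genes were) and 2 were lower (14.7%). By 1.5-fold, 0 members were higher or lower, against 2.24% and 4.6% of all kept genes. Members were thus shifted upward by small amounts, from a ratio of -0.34 to one of 0.55, and few stood far from control.

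With siRNA-2, 23 members were higher than control by any amount, 32 were lower and 16 were equal, where 32.6% of all kept genes were higher and 41.6% lower. By 1.2-fold, 3 members were higher (8.77% of all kept genes) and 7 lower (14.4%). By 1.5-fold, 0 members were higher (2.19%) and 2 were lower (4%), namely MRPS12 and MRPL40. By any amount these shares were near those of all kept genes, and past 1.2-fold fewer members stood in either direction.

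With both siRNAs, 19 members were higher than control by any amount (26.8% of members, against 18% of all kept genes) and 8 were lower (11.3%, against 22.3%). These counts depend on the scaling: quantile normalization gave 39 higher (54.9%, against 47.3% of all kept genes) and centring on kept genes gave 42 (59.2%, against 50%), while scaling on the hybridization controls gave 14 higher (19.7%, against 10.1%) and 44 lower (of 71 members, against 61.0% of all kept genes). At the deposited scaling, a further 24 of 71 members lay on opposite sides of control with the 2 siRNAs, against 1872 of all 7442 kept genes. The same value on all 3 arrays was held by 7 members, against 1107 of all kept genes. By 1.2-fold, 2 members were higher with both (3.53% of all kept genes) and 0 were lower (5.42%). By 1.5-fold, 0 were higher (0.618%) and 0 were lower (0.847%). Exact ties between at least 2 arrays were common in the deposited values, at 26 of 71 members and 41.1% of all kept genes, so a small difference can appear as a ratio of 0. Ties were fewer (32.9%) among the kept genes of similar level described below. Of those genes 21.8% were higher with both siRNAs by any amount and 22.5% lower.

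A measured property of the arrays also set the siRNA-1 array apart. The 9 hybridization control rows, which read bacterial and phage RNAs added to every sample after its RNA had been labelled, were higher on the siRNA-1 array than on the control array in all 9 cases, with a median of 0.16 on the log2 scale (range 0.08 to 0.30). On the siRNA-2 array their median ratio to control was -0.02 (range -0.18 to 0.11). When the arrays were scaled on these rows, the members' median became -0.05 with siRNA-1 over control and -0.02 with siRNA-2 over control, and all kept genes moved to -0.15 and -0.02. The distance between the members and all kept genes cannot change under such a scaling, so it does not test the part of array brightness in that distance. The part of array brightness in single ratios was not tested. The 3253 kept genes whose level lay in the middle 50% of the members' levels (8.25 to 10.4) had medians of 0.00 for both siRNAs. Of these genes, 44.1% were higher with siRNA-1 than with control, against 67.6% of members. On the siRNA-1 array alone, 33.0% of them had their highest value, against 63.4% of members.

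**Figure D2:**
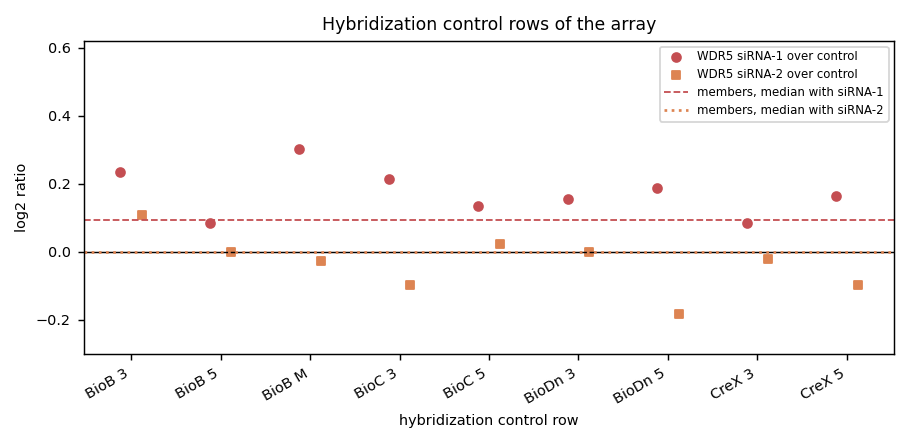
Log2 ratio to the control array (y axis) of the 9 hybridization control rows (x axis), with siRNA-1 as circles and siRNA-2 as squares, and the members' medians as a dashed and a dotted line. All 9 circles lie above 0, from 0.08 to 0.30, and the squares lie from -0.18 to 0.11.

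The first promoters below belong to the member with the largest change shared by both siRNAs (MRPS5) and to the 2 members lowest with siRNA-2 (MRPS12 and MRPL40). MRPL49 was picked as the E-box carrier with the lowest shared change, so its direction follows from the pick. MRPS18A was picked as the brightest carrier of both an ETS and a YY1 motif. Each line gives 250 bases before and 30 bases after the RefSeq transcription start in GRCh38.p14, 5′ to 3′ on the strand of the gene, and capitals mark a motif match. The stretches are MRPS5 chr2:95121779-95122058 (minus strand), MRPS12 chr19:38930694-38930973 (plus strand), MRPL40 chr22:19432295-19432574 (plus strand), MRPL49 chr11:65121933-65122212 (plus strand) and MRPS18A chr6:43687762-43688041 (minus strand).
MRPS5: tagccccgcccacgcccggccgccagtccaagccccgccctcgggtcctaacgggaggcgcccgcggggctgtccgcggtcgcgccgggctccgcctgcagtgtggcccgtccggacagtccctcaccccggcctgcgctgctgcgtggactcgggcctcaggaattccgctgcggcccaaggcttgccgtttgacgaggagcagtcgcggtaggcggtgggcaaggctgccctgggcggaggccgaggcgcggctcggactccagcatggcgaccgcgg
MRPS12: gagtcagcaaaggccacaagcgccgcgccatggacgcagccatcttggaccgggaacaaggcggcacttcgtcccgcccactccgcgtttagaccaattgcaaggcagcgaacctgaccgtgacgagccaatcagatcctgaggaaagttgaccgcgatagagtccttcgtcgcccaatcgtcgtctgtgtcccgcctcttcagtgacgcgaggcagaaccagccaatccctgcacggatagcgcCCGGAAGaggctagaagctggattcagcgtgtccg
MRPL40: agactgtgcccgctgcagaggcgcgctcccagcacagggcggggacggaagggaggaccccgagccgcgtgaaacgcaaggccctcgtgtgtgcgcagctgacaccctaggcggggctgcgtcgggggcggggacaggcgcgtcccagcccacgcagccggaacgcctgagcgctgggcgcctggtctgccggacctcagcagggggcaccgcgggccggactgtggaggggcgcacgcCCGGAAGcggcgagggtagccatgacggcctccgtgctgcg
MRPL49: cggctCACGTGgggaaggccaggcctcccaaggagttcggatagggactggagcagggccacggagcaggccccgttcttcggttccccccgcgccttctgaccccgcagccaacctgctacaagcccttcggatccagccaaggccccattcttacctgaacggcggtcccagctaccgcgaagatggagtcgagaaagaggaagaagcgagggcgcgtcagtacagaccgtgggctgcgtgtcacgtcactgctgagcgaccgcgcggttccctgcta
MRPS18A: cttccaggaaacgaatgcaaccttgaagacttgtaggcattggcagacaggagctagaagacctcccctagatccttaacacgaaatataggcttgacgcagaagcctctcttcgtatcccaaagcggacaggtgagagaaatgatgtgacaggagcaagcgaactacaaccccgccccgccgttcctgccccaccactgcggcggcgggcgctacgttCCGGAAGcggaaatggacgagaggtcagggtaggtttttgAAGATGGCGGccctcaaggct

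The motifs were searched on both strands as plain letters: CACGTG for the E-box that MYC proteins bind, CCGGAAG for ETS factors, and a consensus of 10 letters each for NRF1 and YY1. A promoter window was found for 65 of the 73 members. ETS letters stood in 28 of these 65 windows (43.1%), against 20.6% of the 5986 windows of kept genes and 10.3% of all 27305 windows. YY1 letters stood in 9 (13.8%), against 2.42% of windows of kept genes and 0.963% of all windows. NRF1 letters stood in 8 (12.3%), against 12.9% and 6.20%, and E-box letters in 5 (7.69%), against 10.1% and 7.14%. Mitochondrial ribosomal protein promoters thus held ETS and YY1 letters more often than the windows of kept genes, and NRF1 and E-box letters about as often or less; no test was run.

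In MRPS12 the ETS letters began 5 bases before the start, and in MRPL40 11 bases before it. In MRPS18A the ETS letters began 31 bases before the start and the YY1 letters at base 10 of the transcript. The E-box letters of MRPL49 lay 245 bases before the start. MRPS5 held none of the motifs in this window. A match is a description of letters and not a binding site.

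Median ratios to control were then set side by side, siRNA-1 before siRNA-2. They were 0.12 and 0.00 in the 27 kept members with ETS letters, against 0.06 and 0.00 in the 37 kept members without them. The 9 with YY1 letters had 0.06 and 0.00, against 0.10 and 0.00 in the 55 without. The 5 with E-box letters (MRPL22, MRPL36, MRPL37, MRPL45 and MRPL49) had -0.05 and -0.10, against 0.10 and 0.00 in the 59 without, and 3 of the 7 members with a window that were lower with both siRNAs were among them, against 0 of the 17 that were higher with both. That last split was seen after the values were known and rests on 5 genes. The same split over all kept genes was not computed. MRPL37 and MRPL49 each had a single value on both siRNA arrays, and the value of MRPL45 is uncertain, as given below. MRPL22 and MRPL36 were not lower with both. A link between the motif and the ratios was not tested.

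The largest change shared by both siRNAs was that of MRPS5, the counterpart of a bacterial protein at the mRNA entrance of the small subunit. Its level was 10.05 with siRNA-1 and 9.80 with siRNA-2, against 9.50 with control, which made it 1.46-fold and 1.23-fold higher. MRPS15, another small subunit protein with a bacterial counterpart, was at 11.3 and 11.2, against 10.9 with control, or 1.27-fold and 1.22-fold higher. These were the 2 members at least 1.2-fold higher with both siRNAs.

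MRPL58, a peptidyl-tRNA hydrolase built into the large subunit that frees chains from stalled ribosomes, was at 11.5 with siRNA-1 and 11.3 with siRNA-2, against 11.1 with control (1.33-fold and 1.17-fold higher). MRPL34, a large subunit protein with a bacterial counterpart, was at 12.4 and 12.6, against 12.2 with control. It was the 1 member among the 8 with the largest shared increase that was higher with siRNA-2 (1.25-fold) than with siRNA-1 (1.16-fold). MRPL50, which is found only in mitochondria, was at 10.3 and 10.1, against 9.90 with control, and was 1.37-fold and 1.15-fold higher. All of these were above control on both WDR5 siRNA arrays.

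MRPL39, a protein of the large subunit near the exit tunnel, was at 9.24 with siRNA-1 and 9.16 with siRNA-2, against 8.98 with control. MRPS35, a protein of the small subunit head, was at 10.5 and 10.4, against 10.2 with control. MRPL1, the counterpart of the bacterial protein on the mobile stalk through which used tRNA leaves, was at 8.13 and 7.73, against 7.60 with control. The levels of MRPL1 lay below the highest background row on all arrays, so the size of its change is uncertain. Its ratio to control was 0.53 on the siRNA-1 array and 0.13 on the siRNA-2 array, so most of its difference was on the siRNA-1 array. MRPL18, of the central protuberance of the large subunit, had the same form, with ratios of 0.42 and 0.13.

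Of the 8 members lower with both siRNAs, 6 were within 1.2-fold of control on both arrays. MRPL49 was at 9.06 with each siRNA, against 9.16 with control (1.07-fold lower), and MRPS26 at 8.74 with each, against 8.84 with control (1.07-fold lower). MRPL37 was at 11.1 with each, against 11.2 with control (ratio -0.08). These 3 and MRPL24 (-0.03) had exactly the same value on both siRNA arrays, so their 2 ratios are a single number. The remaining 4 were MRPL10 (ratios of -0.08 and -0.05), MRPL16 (-0.04 and -0.10), MRPL45 (-0.05 and -0.51) and MRPS18A (-0.04 and -0.27), and the last 2 were past 1.2-fold with siRNA-2 alone. Small values of this kind are not distinguished from array to array variation here, for lack of replicates.

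The largest single ratio to control was that of MRPS12 with siRNA-2. MRPS12 is the counterpart of a bacterial protein of the decoding centre. Its level was 8.18 with siRNA-1 and 7.17 with siRNA-2, against 8.03 with control, a 1.12-fold increase in the first case and a 1.81-fold decrease in the second. Its levels lay below the highest background row on all arrays, so the size of the fold is uncertain. MRPL40, of the central protuberance, was at 10.5 with siRNA-1 and 9.65 with siRNA-2, against 10.3 with control, or 1.14-fold higher and 1.54-fold lower, and stayed above the background rows throughout.

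MRPL51, found only in mitochondria, was at 9.80 and 9.16, against 9.68 with control (1.08-fold above control in siRNA-1 cells, 1.43-fold below it in siRNA-2 cells). MRPL45, which ties the ribosome to the inner membrane beside the exit tunnel, was at 12.2 and 11.8, against 12.3 with control (1.04-fold and 1.42-fold lower). A transcribed pseudogene of it, MRPL45P2, had ratios of 0.21 and -0.28, and the probes of such copies can read each other, so the value of MRPL45 is uncertain. MRPL17, at the exit tunnel, was at 9.16 and 8.67, against 9.08 with control, with ratios of 0.08 and -0.41. The last of the 7 members lower by 1.2-fold with siRNA-2 were MRPS7 (-0.30), of the small subunit head, and MRPS18A (-0.27).

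**Figure D3:**
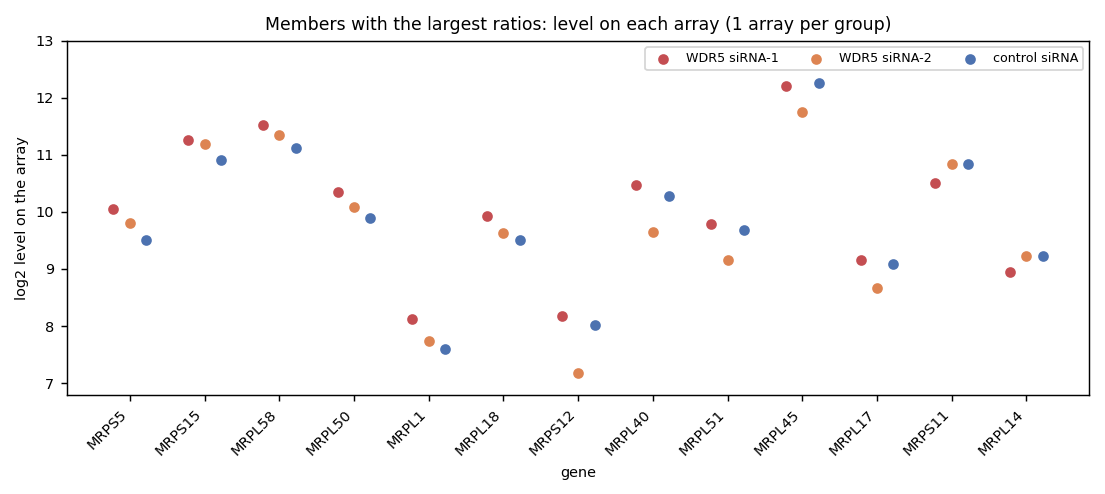
Log2 level on the siRNA-1, siRNA-2 and control arrays for 13 members with large ratios, 1 point per array. The first 6 genes are highest with siRNA-1 and lowest with control, the next 5 are lowest with siRNA-2 (MRPS12 at 7.17), and MRPS11 and MRPL14 are lowest with siRNA-1.

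Only MRPS11 and MRPL14 were lower by 1.2-fold with siRNA-1. MRPS11, a small subunit protein with a bacterial counterpart, was at 10.5 with siRNA-1 and 10.8 with siRNA-2, against 10.8 with control (1.27-fold lower with siRNA-1). MRPL14, a large subunit protein with a bacterial counterpart, was at 8.94 and 9.22, against 9.22 with control (1.21-fold lower with siRNA-1, and exactly equal with siRNA-2). The members 1.2-fold higher with siRNA-1 but not named so far were MRPL47 (0.35), at the exit tunnel, and MRPL2 (0.30), MRPL21 (0.29), MRPL4 (0.28) and MRPS33 (0.27). With siRNA-2 these 5 were between -0.12 (MRPS33) and 0.08 (MRPL21).

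Set directly against siRNA-2, siRNA-1 gave higher values in 51 members (71.8%), lower values in 7 and equal values in 13. Among all kept genes 43.1% were higher and 35.5% lower. This lean was not particular to the members. Of the other genes of mitochondrial translation described below 70.2% were higher, and of the cytosolic ribosomal protein genes 68.8%. By 1.2-fold, 17 members were higher (16.2% of all kept genes) and 2 lower (13.9%). By 1.5-fold, 3 were higher (4.21%) and 0 lower (4.65%). The 3 were MRPS12 (2.02-fold), MRPL40 (1.76-fold) and MRPL51 (1.55-fold), followed by MRPL17 (1.41-fold) and MRPL45 (1.37-fold). The siRNA-2 values of MRPS12, MRPL51 and MRPL17 lay below the highest background row, so the sizes of these 3 folds are uncertain. At the other end, MRPS11 was 1.27-fold and MRPL14 1.21-fold lower on the siRNA-1 array than on the siRNA-2 array, and MRPS28 (-0.16), MRPS2 (-0.14) and MRPL34 (-0.11) came next.

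The large and small subunits were compared next, since a ribosome needs both in equal number. With siRNA-1 over control, the median ratio was 0.09 over 46 large subunit genes and 0.10 over 25 small subunit genes, a difference of -0.01. With siRNA-2 over control both medians were 0.00. With siRNA-1 over siRNA-2 the medians were 0.08 and 0.13, a difference of -0.04. With siRNA-1, 31 large subunit genes were higher and 7 lower, and 17 small subunit genes were higher and 5 lower. The spread within each subunit, from -0.28 to 0.53 in the large and from -0.34 to 0.55 in the small with siRNA-1, was many times the difference between their medians. The sign of that difference was not stable: with means in place of medians it was 0.02 for siRNA-1 over control, and over members without an exact tie it was 0.04.

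**Figure D4:**
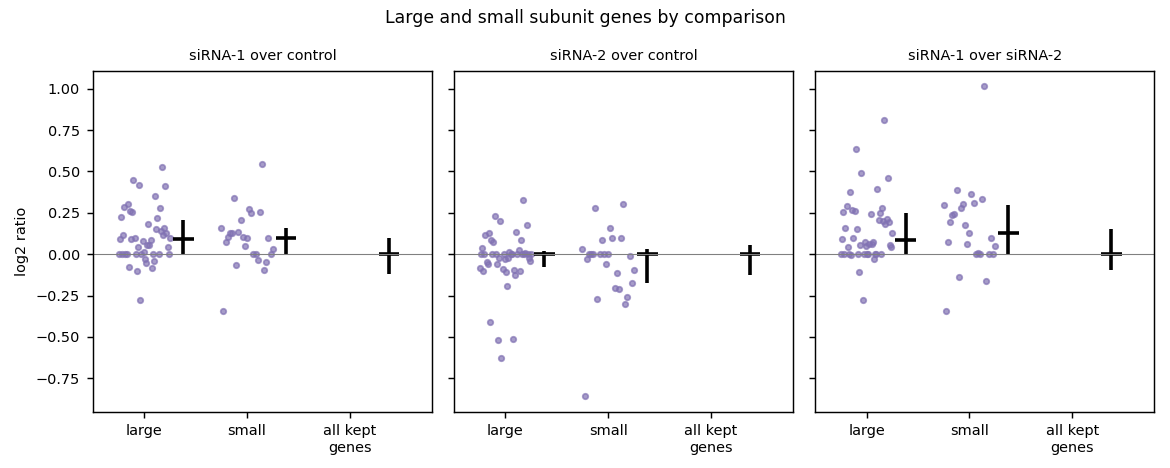
Log2 ratios (y axis) of large and small subunit genes in the 3 comparisons, 1 point per gene, with the median and the quartiles as a black bar beside each group and beside all 7442 kept genes (bar only). The medians of the subunits lie within 0.05 of each other in each panel.

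The symbols do not follow the structure in 2 cases, since MRPS30 and MRPS18A sit in the large subunit of the human mitochondrial ribosome. With both counted there, the differences between 48 large and 23 small subunit genes were -0.01, 0.00 and 0.00 for siRNA-1 over control, siRNA-2 over control and siRNA-1 over siRNA-2. MRPS30 was at 10.2 with siRNA-1 and 10.1 with siRNA-2, against 10.1 with control.

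The members were also divided by descent. In the large subunit, the 28 genes with a bacterial counterpart had medians of 0.08 (siRNA-1) and 0.00 (siRNA-2), and in the small subunit the 13 such genes had 0.05 and 0.00. Members found only in mitochondria had 0.09 and 0.00 in the large subunit (20 genes) and 0.10 and -0.01 in the small subunit (10 genes). The members with the largest ratios came from both kinds, with MRPS5, MRPL1 and MRPS12 of bacterial descent and MRPL50, MRPL40 and MRPL51 particular to mitochondria.

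Within the structure, 7 kept proteins of the exit tunnel side had medians of 0.08 (siRNA-1) and -0.03 (siRNA-2), and on the siRNA-1 array 5 of the 7 lay above control and 2 below it. Against siRNA-2, 0 of the 7 was lower on the siRNA-1 array, where 9.86% of all kept members and 35.5% of all kept genes were. The count was also 0 among the 6 proteins of the central protuberance and the 8 of the small subunit head. It was thus not particular to the exit tunnel side. The 7 exit tunnel proteins ranged from MRPL39 to MRPL45 in their siRNA-2 ratio, 0.18 to -0.51. The 6 proteins of the central protuberance had medians of 0.03 and 0.00, and MRPL18 and MRPL40 stood apart from MRPL27, MRPL38, MRPL46 and MRPL48, whose ratios lay between -0.02 and 0.06. The 8 proteins measured of the small subunit head (DAP3, which carries no MRPS symbol, included) had medians of 0.09 and -0.01. Of the stalk that recruits translation factors, MRPL10, MRPL11 and MRPL53 were measured, with siRNA-1 ratios of -0.08, 0.00 and 0.13, and MRPL12 was not analysed here.

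The brightest and dimmest probe sets were as follows. MRPS21 had the brightest probe set, at 13.4 with siRNA-1 and 13.1 with siRNA-2, against 13.3 with control, followed by MRPL34, MRPS7, MRPL45 and MRPL3, a protein near the catalytic centre that was at 11.4 with each siRNA, against 11.3 with control. The dimmest kept were MRPL22 (7.23 and 7.03, against 7.14), MRPL52 (7.25 and 7.15, against 7.15), MRPL43 (7.50 on each array), MRPS31 (7.72 and 7.44, against 7.46) and MRPL41 (7.71 and 7.62, against 7.62). The ratio did not follow the level: across the 71 members, which share the 3 arrays and are not independent replicates, Pearson's r between mean level and ratio was 0.08 with siRNA-1 and 0.01 with siRNA-2, and Spearman's rho was 0.12 and 0.02.

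Of the 65 members with a promoter window, 20 had a gene that starts within 1000 bases on the opposite strand and runs the other way. A kept neighbour was found in 10 such pairings, in which MRPL46 and MRPS11 count as neighbours of each other. The share of all genes with such a neighbour was not computed. These neighbours were named by position. HIRA, a histone chaperone gene that starts 812 bases from MRPL40, was at 9.12 with siRNA-1 and 9.73 with siRNA-2, against 9.68 with control, so HIRA was lower with siRNA-1 (-0.56), whereas MRPL40 was lower with siRNA-2 (-0.63). MRPL46 and MRPS11 start 320 bases apart and had siRNA-1 ratios of 0.06 and -0.34. SKA3, a kinetochore gene 106 bases from MRPL57, had ratios of -0.17 and -0.21, against 0.09 and -0.06 for MRPL57. EME1, a DNA repair endonuclease gene 45 bases from MRPL27, had -0.13 and -0.31, against 0.01 and 0.01 for MRPL27. FAU, CYB5RL and PTCD2, beside MRPL49, MRPL37 and MRPS27, each had the same value on all 3 arrays. ZNF189, beside MRPL50, had -0.01 and 0.00, and PIERCE1, beside MRPS2, had 0.05 and -0.01. None of these neighbours passed 1.2-fold in the direction of its partner with either siRNA. Of the partners, only MRPL40, MRPL50 and MRPS11 passed 1.2-fold themselves, so most had no clear direction to match. Shared control of such pairs was not tested.

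Other genes of mitochondrial translation were taken from lists of assembly factors, translation factors, tRNA enzymes and mitochondrial RNA enzymes. Of 78 listed genes, 47 were measured and all 47 were kept. Their median ratio was 0.01 with siRNA-1 over control and -0.03 with siRNA-2 over control, and 0.08 with siRNA-1 over siRNA-2. With siRNA-1, 24 were higher by any amount (51.1%, against 38.1% of all kept genes), 14 lower (29.8%, against 38.2%) and 9 equal. With both siRNAs 13 were higher (27.7%, against 18%) and 13 lower (27.7%, against 22.3%). By 1.2-fold, 2 were higher with both (4.26%, near the 3.53% of all kept genes) and 0 lower (5.42% of all kept genes). By 1.5-fold with both, 0 were higher (0.618% of all kept genes) and 0 lower (0.847%).

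**Figure D5:**
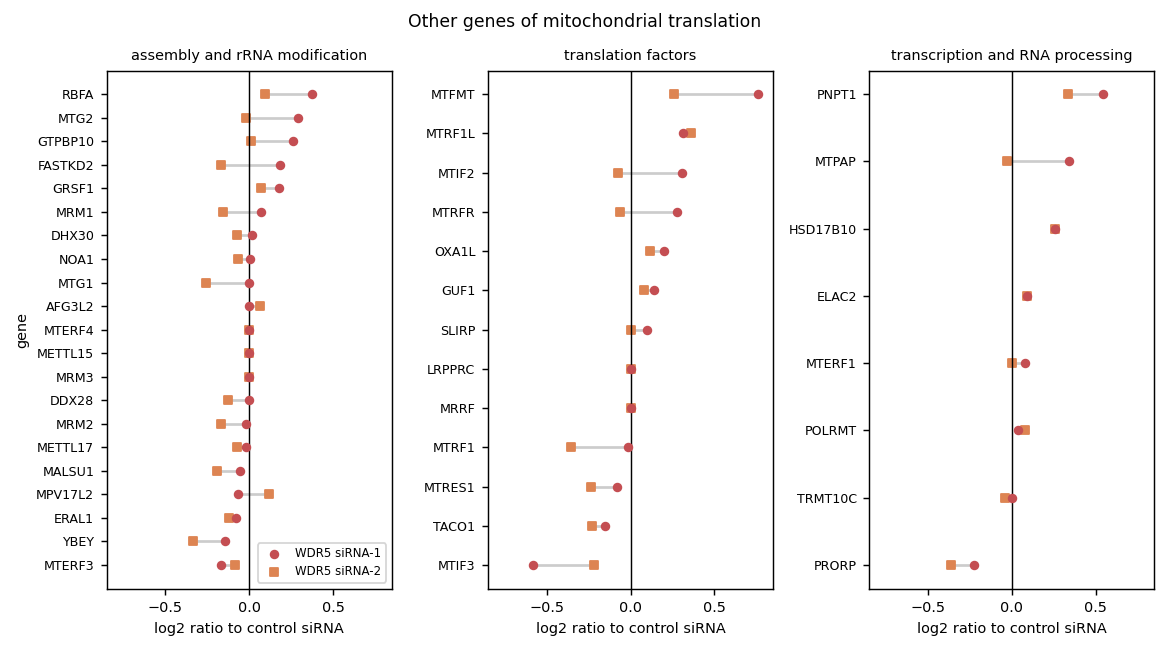
Log2 ratio to the control array (x axis) of the kept genes of 3 lists (y axis), ordered by the siRNA-1 ratio, with siRNA-1 as circles and siRNA-2 as squares. MTFMT and PNPT1 lie farthest right with siRNA-1, at 0.76 and 0.54, and MTIF3 farthest left at -0.58.

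The 2 genes that passed 1.2-fold with both were PNPT1 and MTRF1L. PNPT1, a mitochondrial polynucleotide phosphorylase gene, was at 10.2 with siRNA-1 and 9.94 with siRNA-2, against 9.61 with control (1.46-fold and 1.26-fold higher). MTRF1L, a translation release factor gene, was at 10.2 and 10.3, against 9.89 with control (1.24-fold and 1.29-fold higher). MTFMT, whose product formylates the initiator methionyl-tRNA, was at 10.2 and 9.70, against 9.45 with control (ratios of 0.76 and 0.26, the second just under the limit of 1.2-fold). HSD17B10, a subunit gene of the mitochondrial RNase P, had ratios of 0.26 and 0.25.

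On the low side, MTIF3, an initiation factor gene, was at 6.76 with siRNA-1 and 7.13 with siRNA-2, against 7.35 with control (ratios of -0.58 and -0.22), and these levels are within the range of the background rows. PRORP, the catalytic subunit gene of the mitochondrial RNase P, was at 9.93 and 9.79, against 10.2 with control (1.17-fold and 1.29-fold lower), which set it opposite to HSD17B10 in the same enzyme. TACO1, a translational activator gene, had ratios of -0.15 and -0.23.

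The assembly and rRNA modification genes (21 measured of 24 listed) had medians of 0.00 and -0.08. By any amount, 3 were higher with both (14.3%, against 18% of all kept genes) and 6 lower with both (28.6%, against 22.3%). RBFA, whose product helps to mature the small subunit, was 1.30-fold and 1.07-fold higher, while ERAL1, which chaperones the small subunit rRNA, had ratios of -0.08 and -0.12. YBEY and MTERF3 had -0.15 and -0.33, and -0.17 and -0.09. The levels of RBFA, YBEY and MTERF3 are within the range of the background rows. The translation factors (13 of 17) had medians of 0.10 and 0.00, and the RNA enzymes (8 of 12) of 0.08 and 0.04. Of 20 listed genes of aminoacyl-tRNA synthetases and amidotransferase subunits, 2 were measured. Both encode amidotransferase subunits and neither a synthetase: QRSL1 (0.24 and 0.11) and GATB (-0.05 with each siRNA).

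Among ribosome subunit genes without an MRPL or MRPS symbol, 3 of 5 listed were measured. DAP3, a GTP-binding protein of the small subunit, was at 9.80 with siRNA-1 and 9.76 with siRNA-2, against 9.72 with control. CHCHD1 was at 7.04 and 7.48, against 7.56 with control, which made it 1.44-fold lower with siRNA-1. PTCD3 was at 10.4 and 9.89, against 10.2 with control, 1.19-fold above control in siRNA-1 cells and 1.21-fold below it in siRNA-2 cells. The siRNA-1 ratios of DAP3, CHCHD1 and PTCD3 (0.08, -0.52 and 0.25) differed in sign only through CHCHD1. Their siRNA-2 ratios were 0.05, -0.08 and -0.27.

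The cytosolic ribosome provided a contrast. Its 48 kept protein genes (of 52 measured) had medians of -0.27 for siRNA-1 over control and -0.34 for siRNA-2 over control, and 33 of 48 were lower with both by any amount (68.8%, against 22.3% of all kept genes). By 1.2-fold with both, 23 were lower (47.9%, against 5.42% of all kept genes). Among mitochondrial ribosomal protein genes the counts were 8 of 71 and 0 of 71. With siRNA-1 over siRNA-2, however, both sets had a median of 0.09. With 1 array per group the difference between the sets could not be tested, and cytosolic ribosomal protein genes have many near-identical pseudogenes that probes can read.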

How the data were processed

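The deposited file held log2 levels per array for 53617 rows, 1 column per array. The authors' log2 scale is not stated in the file and was read from the range of the deposited values, 1.34 to 14.9. MAS5 is named in the submitters' processing notes, and its role is not given there. Background correction, scaling, summarisation and genome build are not given in the sources used here. No further scaling was applied. Per the labels, each group was 1 array, so the number of arrays limits the precision.

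Probe sets were named by the platform annotation (16098 rows with 1 gene symbol, 0 with several and 37519 with none), and symbols were updated through Entrez identifiers to RefSeq of GRCh38.p14. Of a gene's probe sets the one with the highest mean was used (4 members had several; the 7 of MRPS18B held identical values), and 7442 of 14884 genes with a mean at or above 6.78 were kept. Ratios are differences of log2 levels, and a fold is 2 to that power. Thresholds of 1.2-fold and 1.5-fold were used. With 1 array per group no test was run. The counting code was run on simulated arrays with large changes, little noise and no built-in ties. That run checks the code only, and not the counts of small differences or of tied values. The members, gene lists, motifs and thresholds were chosen with earlier results of these data known. Members were named as the 8 highest and 8 lowest in shared change (the smaller of both ratios), the 5 highest and 5 lowest per ratio and in level, and by structural group; of other lists, up to 4 genes by shared change. Marker genes named beyond this (HAND2, DBH and TH) were picked with their values known, and neighbours by position. Promoters came from RefSeq (GRCh38.p14), and all 2700 overlapping windows of opposite strands were reverse complements. Python 3.11.15, pandas 2.3.3, numpy 2.4.6 and scipy 1.17.1 were used.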

Additional observations from a re-analysis of the deposited data

Results flagged for a closer look

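The hybridization control rows lie outside the gene measurement, and they showed a signal above the control array: their median log2 ratio was 0.16 with siRNA-1 over control, and all 9 rows were higher. With siRNA-2 over control the median was -0.02, with 2 rows higher, 5 lower and 2 equal. Set against siRNA-2, siRNA-1 gave higher values in all 9 rows, with a median of 0.16. The members' median ratio of siRNA-1 to control was 0.09, and the part of array brightness in it was not tested.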

How the results depend on the processing

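Of 128 values recomputed for 18 results under 11 alternatives, 107 stayed close to the reported value, 15 moved and 6 changed sign. A median was taken as moved when it shifted by over 0.05 and a count when it changed by over 1.5 times. Some of these outcomes were fixed in advance. Centring on kept genes cannot change a large minus small difference, and a reported value of 0 cannot change sign. The large minus small differences were themselves smaller than 0.05. The tally is therefore not a measure of how robust the results are. Scaling on the hybridization controls, added after the data were seen, turned the members' median to -0.054 for siRNA-1 over control and to -0.028 for siRNA-1 over siRNA-2, with 44 members lower with both siRNAs. It takes the same amount off every gene of an array and moved the median of all kept genes to -0.15 and -0.12, so the distance between the members and all kept genes is unchanged by construction. The large minus small difference for siRNA-1 over siRNA-2 became 0.025 with the 75th percentile filter (50 members), which also left 11 members 1.2-fold higher in that comparison, and 0.0011 with subunits by structure. For siRNA-1 over control it became 0.015 with means in place of medians. Quantile normalization gave 39 members higher with both siRNAs by any amount, and centring on kept genes gave 42 higher and 5 lower with both, and 1 member 1.2-fold lower with siRNA-1. Both scalings turn exact ties into small ratios, so the count of 19 higher rests on the scaling. The mean of the members was 0.15 for siRNA-1 over siRNA-2, in place of a median of 0.09. Among the 37 members above the highest background row that median was 0.17, and fewer members gave lower counts: 12 higher and 4 lower with both siRNAs, 7 and 1 by 1.2-fold with siRNA-1 over control, and 9 and 1 with siRNA-1 over siRNA-2. Among the 45 members without an exact tie, also added later, the median was 0.21 for siRNA-1 over siRNA-2 and the large minus small difference 0.040 for siRNA-1 over control. The counts of members past 1.5-fold with both siRNAs stayed at 0 under each alternative that gave them. No paired analysis was possible because each group held 1 array. Signal over background limits the values of the members below the highest background row.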
